A study of Mus musculus with 214 samples.

Results

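The livers described here came from Mgmt-/- mice that had received N-nitrosodimethylamine (NDMA) as pups and were collected at 10 weeks or at 10 months after treatment. They were chosen as all libraries of the Mgmt-/- data whose treatment is labelled NDMA and whose collection is labelled week 10 or month 10, which gave 21 of the 213 libraries with values in the whole series, 8 at week 10 (4 males and 4 females) and 13 at month 10 (6 males and 7 females). The saline livers of the same genotype and times, 8 at week 10 (4 males and 4 females) and 12 at month 10 (5 males and 7 females), served as the reference for adult time. The question put to them was which genes moved between the 2 times after NDMA beyond what moved in the saline livers. The series followed WT and Mgmt-/- mice after saline or NDMA, and its libraries were read by 3′ digital gene expression, in which reads near the 3′ end of each transcript are counted per gene.

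All 4 groups were RaDR+/+;GPT+/+;Mgmt-/- on a C57BL6 background, so the saline controls lacked Mgmt too and every mouse carried the RaDR recombination reporter and the gpt mutation reporter. NDMA was injected intraperitoneally at 3.5 mg/kg on postnatal day 8 and at 7 mg/kg on postnatal day 15, and control pups received saline. Treatment was assigned by litter, mice came from separate litters where possible, and the litter of each mouse is not given in the sources used here, so litter could not enter the fits. The material was a piece of at most 30 mg of liver per mouse. The study counted tumours in livers of this cohort at month 10, but neither the labels nor the methods say whether a sequenced piece held tumour. Of the 13 saline mice that the labels name at month 10, 12 had a column of values, and the remaining mouse was not analysed here.

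Each value is a gene count that the authors divided by 1 size factor per library, called a normalized count below. Depth ran from 713584 to 7740710 reads per library, with group medians of 1341900 (saline week 10), 1081990 (saline month 10), 2061520 (NDMA week 10) and 1520040 (NDMA month 10). The gene that defines the genotype was near zero throughout, since Mgmt stood at 0 to 9.67 normalized counts in the 41 Mgmt-/- libraries (median 1.4995) and at 16.2 to 130.0 in the 39 WT libraries of the same treatments and times (median 39.7), although the WT and Mgmt-/- data were normalized separately. The tissue label held in every library: Alb stood at 29810 or more, Apoa1 at 5532 or more and Ttr at 10551 or more, while Kap and Umod of kidney and Pnlip of pancreas were at 0 in all 41 libraries. Of the other markers of those organs, Slc34a1 of kidney was at 2.83 or less and at 0 in 21 libraries, and Cela3b and Cpa1 of pancreas were at 3.00 or less and at 0 in 38 and 40. Sex-linked genes matched the labelled sex in all 41 libraries. Of the T cell genes, Cd3e was at 0 in 22 libraries and Cd3d in 8. Of the B and plasma cell genes, Cd79a was at 0 in 34 libraries and Jchain in 1, with Jchain at up to 179. Of the neutrophil genes, Ly6g was at 0 in 36 libraries while S100a8 and S100a9 were above 0 in all 41, at up to 669 and 429. The bile duct genes Krt19, Krt7 and Epcam were at 0 in 13, 16 and 7 libraries. In a bulk sample, fewer cells of a type and less RNA per cell cannot be told apart.

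A set of 3 libraries stood apart from their groups before any gene was tested. Within each library, the deviation of each gene from its mean over the 41 libraries was regressed on log2 transcript length. The slope was -0.326 to -0.204 in 7 of 8 saline livers at week 10 and -0.299 to -0.149 in all 8 NDMA livers at week 10. It was 0.101 to 0.293 in the 12 saline livers at month 10 and 0.0628 to 0.368 in 11 of 13 NDMA livers at month 10. Short transcripts thus read relatively higher at week 10 and long transcripts at month 10, in both treatments. The exceptions were the saline male D209001 at week 10 (0.250) and the NDMA males D209016 (-0.246) and D209018 (-0.267) at month 10, each of which fell in the range of the other time. Whether their labels or handling were exchanged between the times was not tested, and their values are shown under the labels as given. The number of genes called in each comparison below is given with and without these 3 libraries, and so are the values of some single genes and lists.

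**Figure D1:**
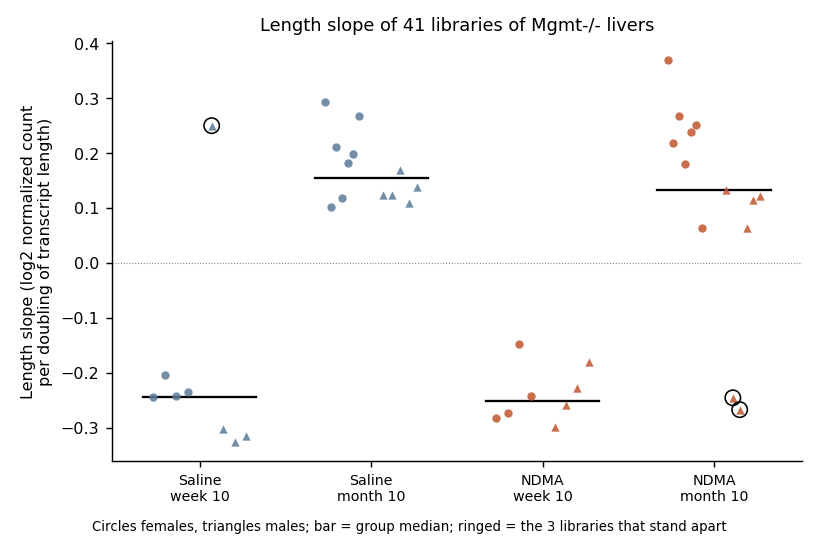
Slope of each library's log2 deviation on log2 transcript length (vertical axis, no unit) in the 4 groups (horizontal axis), with females as circles, males as triangles and a bar at the group median. The 3 ringed libraries, at 0.250, -0.246 and -0.267, lie among the libraries of the other time.

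NDMA is activated in hepatocytes by the cytochrome P450 enzyme encoded by Cyp2e1 to a species that methylates DNA. The methyl group that it leaves on guanine is removed by MGMT, a protein that accepts it and is used up, and without MGMT the lesion mispairs with thymine and engages mismatch repair. Injured livers are known to express the p53 target Cdkn1a, an inhibitor of cyclin-dependent kinases, the Nrf2 targets that conjugate and reduce electrophiles, and genes of fetal liver that hepatocytes silence after birth and hepatocellular tumours can express again. Adult hepatocytes also hold programmes that differ by sex under the pattern of growth hormone release, among them the major urinary proteins, sulfotransferases and P450 enzymes.

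The promoters of 12 of the 19 genes that fell and of 8 of the 11 that rose in the central comparison below were available from RefSeq (GRCm38.p6, 250 bases before to 50 bases after the start of the gene). They were searched on both strands for 4 motifs named for factors of these responses. The antioxidant response element core TGACNNNGC was found in 3 of 12 falling and 3 of 8 rising genes, against 14.0% of 27025 genes with a promoter. The AP-1 letters TGANTCA were found in 3 of 12 falling genes (Sprr1a, Srxn1 and Anxa2) and 2 of 8 rising genes (Tom1l2 and Sult2a8), against 8.97% of all. The cell cycle homology region TTTGAA was found in 3 of 12 falling genes (Gpx2, Cdkn3 and Cbr3) and in 0 of 8 rising genes, against 20.2% of all. The STAT letters TTCNNNGAA were found in 0 of 12 and 0 of 8, against 9.55% of all. A match of letters is a description of the sequence and does not show that a factor binds there. The promoters of 3 genes that fell are shown, 2 with repeated AP-1 letters and 1 with the cell cycle letters, all in capitals and read 5′ to 3′ along the strand of the gene. In Sprr1a an antioxidant response element match overlaps the first capitals from 2 bases before them. In Cdkn3 the capitals are the reverse complement of TTTGAA.
Sprr1a, chr3:92485832-92486131, minus strand: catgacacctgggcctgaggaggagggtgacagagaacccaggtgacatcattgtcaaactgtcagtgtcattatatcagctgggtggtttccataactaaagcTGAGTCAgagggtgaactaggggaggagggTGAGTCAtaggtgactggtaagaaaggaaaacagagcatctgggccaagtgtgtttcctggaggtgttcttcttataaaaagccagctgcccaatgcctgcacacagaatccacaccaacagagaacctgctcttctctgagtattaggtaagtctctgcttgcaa
Srxn1, chr2:152105274-152105573, plus strand: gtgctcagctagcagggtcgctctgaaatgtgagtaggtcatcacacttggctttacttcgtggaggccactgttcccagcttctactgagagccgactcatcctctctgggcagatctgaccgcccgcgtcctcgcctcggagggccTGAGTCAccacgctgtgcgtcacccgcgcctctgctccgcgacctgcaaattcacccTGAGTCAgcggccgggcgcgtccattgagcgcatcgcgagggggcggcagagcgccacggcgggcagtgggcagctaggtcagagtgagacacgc
Cdkn3, chr14:46760291-46760590, plus strand: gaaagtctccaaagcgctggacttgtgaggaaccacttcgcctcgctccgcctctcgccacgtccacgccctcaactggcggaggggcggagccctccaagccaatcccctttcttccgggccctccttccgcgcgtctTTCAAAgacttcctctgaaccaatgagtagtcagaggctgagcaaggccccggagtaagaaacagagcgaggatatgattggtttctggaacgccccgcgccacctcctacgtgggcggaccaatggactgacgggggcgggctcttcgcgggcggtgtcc

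Between week 10 and month 10 the NDMA livers moved in nearly as many genes as the saline livers. A gene was called where limma gave a Benjamini-Hochberg adjusted p under 0.05 and a change over 0.58 on the log2(value + 1) scale, among the 10020 genes whose mean reached 5. In NDMA livers 4753 genes were called (47.4%), 2833 higher at month 10 (28.3%) and 1920 lower (19.2%). In saline livers 5012 genes were called (50%), 3140 higher (31.3%) and 1872 lower (18.7%). Of these, 2224 were higher in both treatments, which is 78.5% of those higher in NDMA livers and 70.8% of those higher in saline livers, and 1396 were lower in both, 72.7% and 74.6%. Only 3 genes that rose after NDMA fell in saline livers, and 8 that fell after NDMA rose there. Long transcripts made up the rising side and short transcripts the falling side in both treatments: the median transcript length was 2909.5 bases for genes that rose in NDMA livers, 1066 for those that fell and 2024 for all genes tested, and 2932 and 1077 for the risen and fallen genes of saline livers. Without the 3 libraries 5526 genes were called in the NDMA change and 5839 in the saline change. With the slope on transcript length as a term in the fit, 77 genes were called in the NDMA change and 16 in the saline change. Time and the length slope can therefore hardly be told apart within a treatment, while the difference between the treatments compared groups of like median slope at each time. The medians of saline and NDMA livers were -0.244 and -0.251 at week 10, and 0.154 and 0.133 at month 10. The 3 libraries that stood apart, all males, did not share the slope of their groups. Counts of list members that rose or fell within a treatment, given below, come from the fit without the slope.

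The difference of the changes, the NDMA change less the saline change, was called for 47 of the 10020 genes (0.469%), 20 with a more positive change after NDMA (0.2%) and 27 with a more negative one (0.269%). Of the 47 genes, 30 were also called in the NDMA change in the same direction, 19 falling and 11 rising, and these are called the late genes of NDMA livers for their change between the 2 late times, not for a growing distance from saline. The other 17 were called in the difference while the NDMA change itself was not called. All 30 late genes differed between NDMA and saline livers at week 10, and all 30 lay nearer to saline at month 10 than at week 10, so that 0 moved away from saline. These counts rest on the same libraries as the choice of the genes. At month 10, 11 of the 19 falling genes were still above saline and 3 of the 11 rising genes still below it. Without the 3 libraries 100 genes were called in the difference and 54 were late genes. Of the 30, 16 of 19 falling and 10 of 11 rising genes kept their call in the difference there, and 18 of 19 and 11 of 11 their call in the NDMA change. With the slope as a term 93 genes were called in the difference and 25 were late genes. The 30 all kept their call in the difference in that fit, but only 8 of 19 falling and 2 of 11 rising genes kept their call in the NDMA change. The falling genes that kept both were Sprr1a, Ly6d, Spink1, Gpx2, Cbr3, Lysmd2, H19 and Srxn1, and the rising genes were Cyp2c37 and Rgs16. On whole reads, edgeR called the difference of 9 of 19 falling and 10 of 11 rising genes and DESeq2 that of 13 of 19 and 11 of 11. Neither tool called Sprr1a, Gpx2, Wfdc3, Cdkn3, Cbr3 or Lysmd2.

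**Figure D2:**
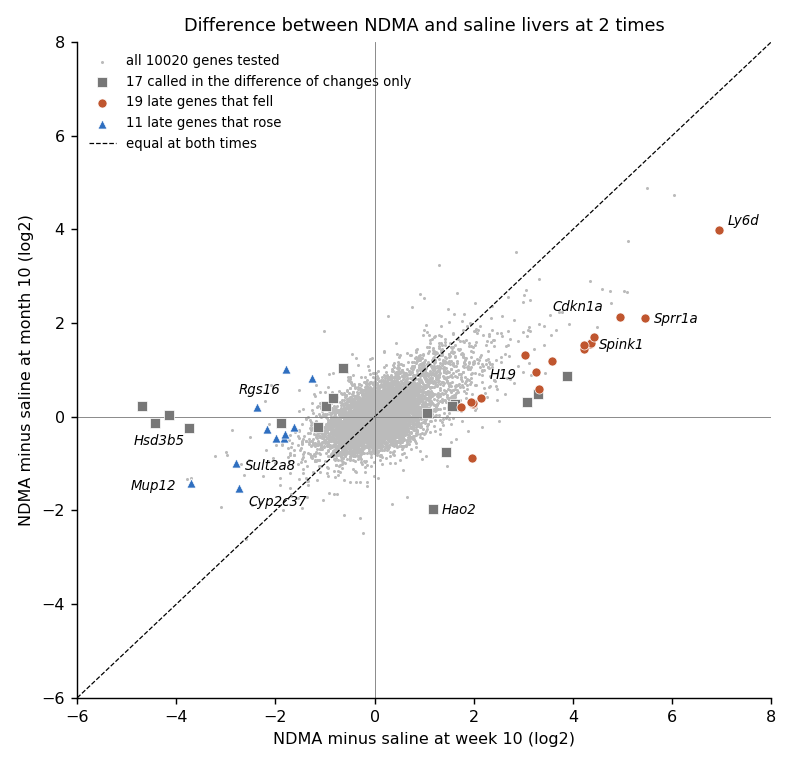
NDMA minus saline at week 10 (horizontal axis) against the same at month 10 (vertical axis), log2 of normalized count + 1, for 10020 genes, with the 19 falling and 11 rising late genes and the 17 genes called in the difference alone marked. The falling genes lie to the right of the dashed line of equality and the rising genes to its left, nearer to zero at month 10.

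Among the genes that fell, Cdkn1a (chr17:29090976-29100727 in GRCm38) halts the cell cycle under p53. Its normalized count was 1.51 to 8.48 in saline livers at week 10 (median 5.92), 1.48 to 23.5 in saline livers at month 10 (median 8.396), 97.7 to 349 in NDMA livers at week 10 (median 169.9) and 19.5 to 105 in NDMA livers at month 10 (median 35.5). At week 10 the lowest NDMA liver lay far above the highest saline liver, and at month 10 the ranges of the treatments overlapped by a small margin. Cdkn1a fell by 2.21 ± 0.34 (log2, SE) in NDMA livers, its saline change of 0.60 ± 0.35 was not called, and the difference was -2.82 ± 0.49 (limma, adjusted p = 0.00254). It was called in the difference in all 41 fits that each left out 1 library. NDMA minus saline was 4.95 at week 10 and 2.14 at month 10. The second cell cycle gene, Cdkn3 (chr14:46760541-46771669), encodes a phosphatase of cyclin-dependent kinases and peaks in dividing cells. Cdkn3 stood at 13.1 to 34.4 in NDMA livers at week 10 (median 20.2) and at 0 to 23.6 at month 10 (median 2.85), against 0 to 16.4 and 0 to 3.89 in saline livers. Its range at month 10 covered the whole saline range. The difference was -2.74 ± 0.67 (limma, adjusted p = 0.0376), and it was lost without the 3 libraries (-2.55).

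Ly6d and Sprr1a, a surface protein and a cornified envelope protein better known from squamous epithelia, fell together with it. Ly6d (chr15:74762056-74763620) stood at 1042 to 4587 in NDMA livers at week 10 (median 1317) and 81.8 to 1421 at month 10 (median 206), against 3.56 to 25.2 (median 14.8) and 1.59 to 64.2 (median 11.8) in saline livers. It was the late gene whose ranges stayed apart at both times, with the lowest NDMA liver at month 10 above the highest saline liver. Ly6d fell by 2.90 ± 0.47 in NDMA livers, with a difference of -2.95 ± 0.67 (limma, adjusted p = 0.0256), and 3 of 41 fits without a library lost the difference. Sprr1a (chr3:92483952-92485895), whose promoter is shown above, was at 0 in all 8 saline livers at week 10 and at 0 to 1.94 in the 12 at month 10. In NDMA livers it stood at 19.7 to 113 at week 10 (median 42.1) and 0 to 25.8 at month 10 (median 5.80). It fell by 2.75 ± 0.42 in NDMA livers (limma, adjusted p = 2.19e-06), and its difference was called in all 41 fits without a library.

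Spink1, a secreted trypsin inhibitor that hepatocellular tumours can express, H19, an imprinted non-coding RNA of fetal liver, and Timp1, an inhibitor of matrix metalloproteinases, fell as well. Spink1 stood at 90.7 to 281 in NDMA livers at week 10 (median 134) and 1.39 to 67.7 at month 10 (median 11.96), against 3.02 to 13.6 and 0 to 6.24 in saline livers. Spink1 had the largest fall of the 30 late genes, 3.51 ± 0.40, with a difference of -2.79 ± 0.58 (limma, adjusted p = 0.0102). H19 (chr7:142575529-142578143, a lincRNA) stood at 19.2 to 173 at week 10 (median 104) and 10.5 to 34.9 at month 10 (median 16.4), against 3.46 to 19.6 and 3.52 to 30.9 in saline livers. The H19 ranges of the treatments overlapped at both times. H19 fell by 2.16 ± 0.33, with a difference of -2.30 ± 0.47 (limma, adjusted p = 0.0102). Timp1 (chrX:20870166-20874735) stood at 13.9 to 30.6 at week 10 (median 18.8) and 0 to 13.9 at month 10 (median 4.88), against at most 1.51 and 5.43 in saline livers, and its difference was -2.69 ± 0.59 (limma, adjusted p = 0.0165). Anxa2 (chr9:69453620-69491795), a calcium-dependent membrane-binding protein, stood at 214 to 771 at week 10 (median 324) and 30.6 to 227 at month 10 (median 65.0), against 28.2 to 58.0 and 7.94 to 79.7 in saline livers. The Anxa2 difference of -1.71 ± 0.42 (limma, adjusted p = 0.0444) was called in 15 of 41 fits without a library, the fewest of the 30 late genes.

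**Figure D3:**
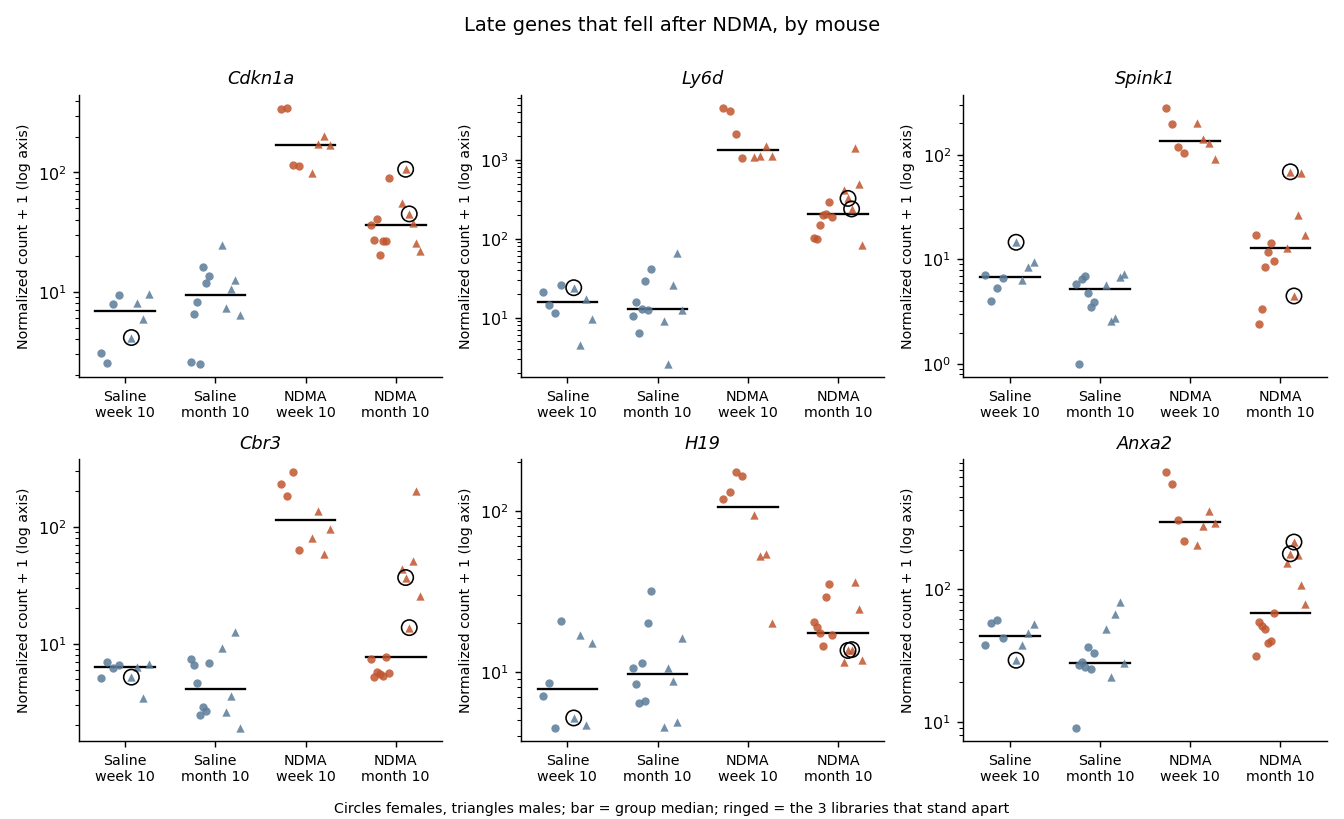
Normalized count + 1 (log axis) of 6 late genes that fell in each mouse of the 4 groups, with females as circles, males as triangles, bars at group medians and rings on the 3 libraries that stood apart. The medians of NDMA livers at month 10 lie between those of NDMA livers at week 10 and of saline livers, while single mice overlap with 1 or both of them, and Ly6d alone keeps its groups apart at both times.

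Cbr3, Gpx2, Srxn1 and Nqo1, 4 enzymes of electrophile and peroxide metabolism, were among the falling genes. Cbr3 (chr16:93683215-93690990), a carbonyl reductase, stood at 57.2 to 294 in NDMA livers at week 10 (median 114) and 4.16 to 202 at month 10 (median 6.66), against 2.46 to 6.04 and 0.891 to 11.7 in saline livers. All 8 NDMA livers at week 10 were above every saline liver, and those of month 10 ranged from the saline level to the level of week 10. Cbr3 fell by 3.01 ± 0.46, with a difference of -2.71 ± 0.66 (limma, adjusted p = 0.0365) that was lost without the 3 libraries (-2.68). Gpx2, a glutathione peroxidase, stood at 11.5 to 98.8 at week 10 (median 16.0) and 0 to 27.7 at month 10 (median 1.16), with saline livers at 1.93 or less at both times. The Gpx2 fall was 2.76 ± 0.47 in NDMA livers, and its difference (-2.79 ± 0.67, limma, adjusted p = 0.0313) was lost without the 3 libraries (-2.62). Srxn1, which restores oxidized peroxiredoxins, and Nqo1, a quinone reductase, rose in saline livers (1.01 and 0.86) while they fell in NDMA livers (-0.73 and -0.68). Without the 3 libraries the NDMA change of Srxn1 was -0.46 and was not called. That of Nqo1 was 0.028 in males alone, the other way, and was not called with the slope as a term (-0.77). Srxn1 stood at 56.8 to 155 at week 10 (median 97.2) and 21.98 to 158 at month 10 (median 65.0), against 11.2 to 31.3 and 23.1 to 64.2 in saline livers, so that the ranges were apart at week 10 and overlapped at month 10. The differences were -1.74 ± 0.37 for Srxn1 and -1.54 ± 0.37 for Nqo1 (limma, adjusted p = 0.0161 and 0.0328).

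The Raet1 genes encode stress-induced surface ligands of the NKG2D receptor of natural killer and T cells. Raet1a, Raet1b, Raet1c and Raet1d each counted as a late gene, but they lie in 1 cluster on chromosome 10 and their values follow Raet1d at a Pearson correlation of 0.993 or more across the 41 libraries, so they may share reads and are read here as about 1 signal. Raet1d stood at 79.5 to 332 in NDMA livers at week 10 (median 126) and 31.9 to 186 at month 10 (median 67.7), against 16.7 to 90.5 and 29.6 to 83.6 in saline livers. The ranges of the treatments overlapped at both times. Raet1d fell by 1.02 ± 0.27 in NDMA livers and rose by 0.69 in saline livers, and the difference was -1.71 ± 0.38 (limma, adjusted p = 0.0165). The last falling genes were low in all groups. Wfdc3, a gene of the whey acidic protein family, stood at 8.45 to 53.5 at week 10 (median 20.8) and 0 to 18.7 at month 10 (median 3.22), Lysmd2 at 11.8 to 27.5 (median 21.4) and 0 to 6.07 (median 2.90), and both were at 4.82 or less in every saline liver. Fam241b stood at 2.64 to 15.0 and 0 to 10.6 in NDMA livers while it rose in saline livers by 1.71 ± 0.42.

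Of the 11 genes that rose, most serve hepatocyte metabolism and were low in NDMA livers at week 10. Cyp2c37 (chr19:39992424-40012243), a P450 enzyme of the arachidonic acid pathway, stood at 55.5 to 269.6 in NDMA livers at week 10 (median 116) and 108 to 928 at month 10 (median 432), against 441 to 1679 (median 766) and 444 to 1922 (median 1434) in saline livers. The ranges were apart at week 10 and overlapped at month 10, and Cyp2c37 was still below saline then (-1.52). It rose by 1.44 ± 0.20 in NDMA livers, with a difference of 1.21 ± 0.28 (limma, adjusted p = 0.0261). Reads of near-identical Cyp2c genes may be split in such counts. Sult2a8 (chr7:14410686-14446769), a sulfotransferase of bile acids, stood at 44.3 to 683 at week 10 (median 386) and 236 to 1407 at month 10 (median 609), against 1078 to 2552 and 734 to 1753 in saline livers. Sult2a8 rose by 1.27 ± 0.29, with a difference of 1.82 ± 0.41 (limma, adjusted p = 0.0196), and remained below saline at month 10 (-0.98). Ces3b, a carboxylesterase of the hepatocyte, stood at 18.5 to 150.1 at week 10 (median 85.1) and 111 to 266 at month 10 (median 172), against 89.6 to 506 and 150.3 to 318 in saline livers, a difference of 1.43 ± 0.33 (limma, adjusted p = 0.0227).

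Lifr (chr15:7090614-7197489), the receptor subunit for leukaemia inhibitory factor, stood at 54.9 to 145 in NDMA livers at week 10 (median 113), below all 8 saline livers at that time (238 to 989). At month 10 it stood at 90.3 to 374 (median 243), within reach of the saline range of 140.0 to 569. Lifr rose by 1.12 ± 0.25, with a difference of 1.52 ± 0.36 (limma, adjusted p = 0.0289). Rgs16 (chr1:153740349-153745468), a brake on G protein signalling that follows feeding time in liver, stood at 3.65 to 13.7 at week 10 (median 8.49), below all 8 saline livers (16.0 to 116), and at 14.1 to 182 at month 10 (median 40.95) against 6.68 to 160.1 in saline livers. It had the largest rise of the 11, 2.51 ± 0.42, and its difference of 2.60 ± 0.60 (limma, adjusted p = 0.0272) was lost without the 3 libraries (2.45). Tom1l2, a vesicle trafficking gene, Tiam2, an exchange factor for Rac, and Mir22hg, a microRNA host transcript, rose in NDMA livers by 1.10, 1.46 and 0.80 and had differences of 1.40, 2.08 and 1.38. In saline livers Mir22hg fell (-0.58), while the saline changes of Tom1l2 and Tiam2 were not called.

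Cyp7b1 and Mup12, like Mir22hg, rose after NDMA while they fell in saline livers. Cyp7b1 (chr3:18071950-18243338), an oxysterol hydroxylase of bile acid synthesis with higher levels in males, stood at 17.7 to 169 in NDMA livers at week 10 (median 64.7) and 25.8 to 457 at month 10 (median 86.0), against 55.1 to 1149 (median 354) and 38.4 to 309 (median 93.7) in saline livers. It rose by 0.74 ± 0.27 after NDMA and fell by 1.17 ± 0.27 in saline livers, a difference of 1.91 ± 0.38 (limma, adjusted p = 0.0102). The NDMA and saline medians thus lay near each other at month 10, mainly through the lower saline level. Mup12, a major urinary protein gene whose reads can be shared with its copies, rose by 1.17 after NDMA, fell by 1.14 in saline livers and was still below saline at month 10 (-1.40), with a difference of 2.30 ± 0.48 (limma, adjusted p = 0.0136).

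**Figure D4:**
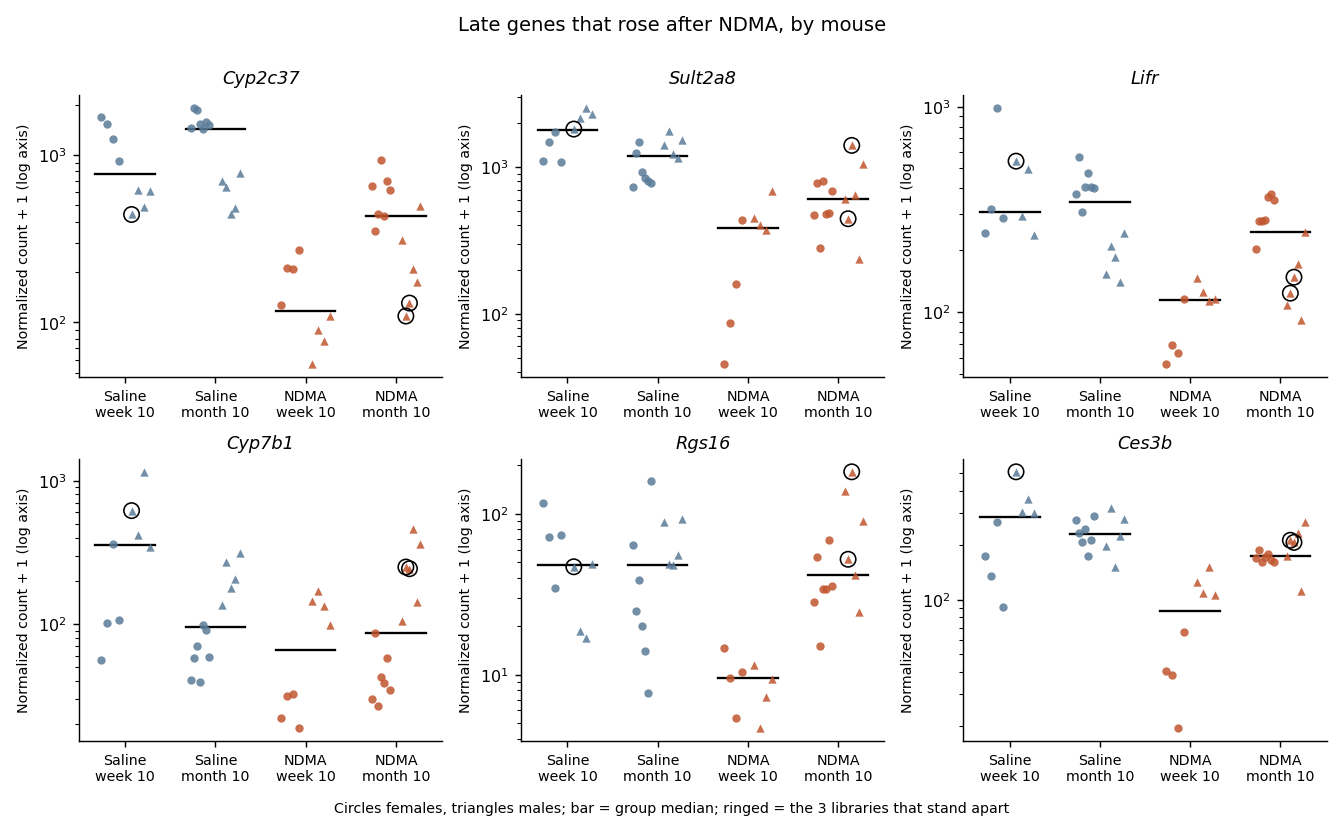
Normalized count + 1 (log axis) of 6 late genes that rose in each mouse of the 4 groups, with females as circles, males as triangles, bars at group medians and rings on the 3 libraries that stood apart. The NDMA livers at week 10 are the lowest group in each panel, and at month 10 the NDMA and saline points overlap in all 6.

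For the 17 genes called in the difference alone the saline livers did most of the moving. In the 9 with a positive difference the median change was -1.83 in saline and 0.53 in NDMA livers, and in the 8 with a negative difference it was 2.13 in saline and -0.04 in NDMA livers. The saline change was called in 16 of the 17. On the positive side stood the male-biased hepatocyte genes Hsd3b5, Slco1a1, Mup11 and Mup13. Slco1a1 (chr6:141907282-141946962), an organic anion transporter, stood at 53.04 to 754 in saline livers at week 10 (median 416) and 0.835 to 455 at month 10 (median 4.99), but at 1.70 to 81.9 (median 19.04) and 1.90 to 253 (median 14.1) in NDMA livers. NDMA livers were thus already low at week 10, and the Slco1a1 difference was 4.19 ± 0.82 (limma, adjusted p = 0.0102). Hsd17b6, an enzyme of androgen and retinoid metabolism, fell by 1.83 ± 0.28 in saline livers, was not called in NDMA livers (-0.15 ± 0.27) and was above saline at month 10 (1.04). On the negative side, Cd36 (chr5:17781690-17888801), a fatty acid receptor, stood at 39.2 to 110.2 in saline livers at week 10 (median 61.4) and 96.2 to 219.9 at month 10 (median 172), while NDMA livers stood at 137 to 218 (median 209) and 115 to 276 (median 183). The NDMA livers of week 10 were all above the saline livers of week 10 and in the range of the saline livers of month 10, a difference of -1.34 ± 0.23 (limma, adjusted p = 0.00254). Krt8, a keratin of hepatocytes, was likewise apart at week 10, with a difference of -1.36. Ntrk2, a neurotrophin receptor, had a difference of -2.81, but its ranges overlapped at week 10, at 0 to 35.5 (median 2.40) in saline and 23.8 to 60.3 (median 35.4) in NDMA livers, the highest saline liver being D209001. Hao2, a peroxisomal hydroxyacid oxidase, departed from it: it rose in saline livers from 0 to 8.40 (median 3.34) to 1.78 to 137 (median 47.9) and stood at 0 to 54.4 (median 5.72) and 0 to 27.6 (median 4.70) in NDMA livers, so that NDMA livers lay below saline at month 10 (-1.96).

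At each time alone, 1080 genes differed between NDMA and saline livers at week 10 (10.8%; 674 higher, 6.73%, and 406 lower, 4.05%) and 720 at month 10 (7.19%; 478 higher, 4.77%, and 242 lower, 2.42%). Without the 3 libraries the counts were 1307 and 685. Of the genes called with all libraries, 409 were called at both times in the same direction, 671 at week 10 alone and 311 at month 10 alone (171 higher and 140 lower), and 0 in opposite directions. Passing at 1 time and not at the other does not show a change: of the 311 genes, 2 were called in the difference (Hao2 and Hsd17b6, both with a called change in saline livers), and of the 671, 31 were. Genes that stayed high after NDMA at month 10 included Tff3, a secreted trefoil peptide (4.88 ± 0.49), Ubd, a ubiquitin-like modifier induced by interferon gamma (3.76 ± 0.40), Mmp12, the macrophage elastase (2.91 ± 0.37), Gsta1, a glutathione transferase (2.68 ± 0.47), Lcn2, an iron-siderophore carrier of inflamed liver (2.68 ± 0.55), and Spp1, osteopontin (2.49 ± 0.35). Ubd stood at 97.6 to 310.1 in NDMA livers at week 10 (median 166) and 12.6 to 215 at month 10 (median 30.0), against at most 8.40 and 9.72 in saline livers, and its ranges were apart at both times. Ubd fell by 2.07 ± 0.45 in NDMA livers, yet its difference from the saline change was not called (-1.34 ± 0.64, limma, adjusted p = 0.594). Tff3 was widely spread at month 10, from 16.1 to 1585 (median 79.9), after 103 to 1587 at week 10 (median 327).

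The dividing cell programme was higher after NDMA at week 10. Of 21 cell division genes tested, 14 fell in NDMA livers and 4 in saline livers, with median changes of -1.11 and -0.33 against medians of 0.17 and 0.22 over all genes, and 0 were called in the difference, whose median was -0.74. Over all genes 19.2% fell in NDMA and 18.7% in saline livers, so the share of the list that fell in saline livers was near that of all genes. With the slope as a term 0 of the 21 were called in either change (median -0.87 in NDMA livers). At week 10, 11 of 21 were above saline and at month 10 5 were, and without the 3 libraries 13 and 6 of 22 were, where 6.73% and 4.77% of all genes tested were above saline with all libraries. Cdk1, the kinase that drives mitosis, stood at 21.5 to 36.3 in NDMA livers at week 10 (median 30.7), above all 8 saline livers (4.08 to 19.9), and at 2.35 to 21.96 at month 10 (median 7.03), against 1.59 to 11.6. Top2a, the topoisomerase of replicating cells, fell alike in both treatments (-1.24 ± 0.35 and -1.29 ± 0.36) and stayed above saline at month 10 (1.85 ± 0.32). The summed level of the list had a median of 196 in saline and 488 in NDMA livers at week 10, and of 158 and 211 at month 10.

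Of 21 oncofetal and hepatocyte tumour genes tested, 10 fell in NDMA livers, 5 were called lower in the difference (0.269% of all genes), 17 were above saline at week 10 and 15 at month 10, against 6.73% and 4.77% of all genes. With the slope as a term 5 fell in NDMA livers, and with edgeR 2 were lower in the difference. The list was drawn up with results of these data known and shares members with the late genes. Afp, the fetal albumin homologue, stood at 9.77 to 55.4 in NDMA livers at week 10 (median 26.1) and 0 to 45.5 at month 10 (median 7.30), against 1.51 to 11.2 and 0 to 8.02 in saline livers. Afp fell by 1.96 ± 0.50 in NDMA livers and its difference was not called (-1.23 ± 0.72, limma, adjusted p = 0.708). Of 22 glutathione transferases and Nrf2 targets, 12 fell and 3 rose in NDMA livers (2 and 0 with the slope as a term), 3 were lower in the difference (1 with edgeR), and 14 were above saline at week 10 and 8 at month 10. Gstm3 stood at 1029.8 to 6304 at week 10 (median 3355) and 197 to 2183 at month 10 (median 653), against 53.2 to 388 and 44.3 to 491 in saline livers, with a difference of -1.93 ± 0.52 (limma, adjusted p = 0.073). Of 19 p53 targets, 6 fell and 1 rose in NDMA livers, 4 fell and 6 rose in saline livers, and Cdkn1a was the 1 called in the difference. Over all genes 19.2% fell and 28.3% rose in NDMA livers and 18.7% and 31.3% in saline livers, so the share of the list that rose in saline livers was near that of all genes. No p53 target was called in either change with the slope as a term. Without the 3 libraries 3 p53 targets were lower in the difference, and with the slope as a term 2 were.

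Part of the interferon-stimulated genes were higher after NDMA at each time. Of 37 tested, 9 were above saline at week 10 and 19 at month 10, which became 17 and 19 when all libraries were brought to 1 total, and 0 were below at either time. Over all genes 6.73% were above saline at week 10 and 4.77% at month 10. None was called in the difference, whose median was 0.10, so the counts do not show a change between the times. In NDMA livers 10 fell and 5 rose and in saline livers 10 fell and 4 rose, which became 8 and 7 and 5 and 7 with that scaling. Over all genes 19.2% fell and 28.3% rose in NDMA livers and 18.7% and 31.3% in saline livers. With that scaling these shares were 14.5% and 34.0% in NDMA livers and 8.90% and 45.7% in saline livers. Of the 37, 0 were called in either change with the slope as a term. Rtp4, a chaperone of receptors induced by interferon, stood at 95.5 to 269.9 in NDMA livers at week 10 (median 165) and 18.8 to 216 at month 10 (median 52.7), against 18.8 to 147 (median 98.5) and 13.6 to 37.4 (median 22.99) in saline livers, so it fell in both treatments by like amounts (-1.51 ± 0.31 and -1.68 ± 0.32). Zbp1, a sensor of nucleic acids, fell by 1.61 in NDMA and by 1.45 in saline livers and was above saline at both times (1.34 ± 0.29 at month 10). Without the 3 libraries 8 and 18 of the 37 were above saline. In males alone 20 of 37 were above saline at month 10, and in females alone 5 were, a contrast that was not tested. Over all genes 4.34% were in males alone and 2.55% in females alone. The NDMA males at month 10 included D209016 and D209018, which stood apart. D209016 had the highest summed level of the list in NDMA livers at month 10, 10911 against a group median of 4097.

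MHC class II genes, which present antigen on macrophages, dendritic cells and B cells, were higher after NDMA at both times. Over all genes 6.73% were above saline at week 10 and 4.77% at month 10, and 19.2% fell in NDMA and 18.7% in saline livers. With the slope as a term 0 genes of MHC class II, recruited macrophages, Kupffer cells or chemokines were called in either change. Of 7 tested, 6 were above saline at week 10 and 6 at month 10, 5 fell in NDMA and 3 in saline livers, and 0 were called in the difference. H2-Aa, a class II alpha chain, stood at 521 to 1251 in NDMA livers at week 10 (median 556), above all 8 saline livers (45.9 to 387), and at 77.5 to 533 at month 10 (median 196), against 31.1 to 109. Of 12 genes of recruited macrophages, 10 fell in NDMA and 5 in saline livers, 11 were above saline at week 10 and 10 at month 10. None of the 12 was called in the difference, while 2 were lower without the 3 libraries. Ms4a7, a membrane protein of macrophages, stood at 25.5 to 47.6 in NDMA livers at week 10 (median 31.2), above all 8 saline livers (0 to 11.2), and at 1.39 to 26.6 at month 10 (median 7.03), against 0 to 9.24. Its difference was called without the 3 libraries (-2.64) and not with them (-2.26 ± 0.60, limma, adjusted p = 0.0676). The summed level of the list had a median of 2383 in saline and 5879 in NDMA livers at week 10, and of 1115 and 2517 at month 10, but its most abundant gene, Apoc2 (medians of 1938, 4212, 850.1 and 1812 in that order), is expressed by hepatocytes too. Of 16 Kupffer cell genes, 6 fell in NDMA and 8 in saline livers. Of 12 chemokines, 6 were above saline at week 10 and 8 at month 10, among them Cxcl10 (2.06 and 1.22). Of 27 genes of fibrosis and stellate cells, 18 were above saline at week 10 and 11 at month 10, and Timp1 was the 1 called in the difference, to which 3 were added without the 3 libraries. Col1a1, a chain of the main fibrillar collagen, stood at 10.9 to 43.3 at week 10 (median 14.8) and 5.80 to 22.2 at month 10 (median 12.9) in NDMA livers, against at most 7.31 and 8.69, and its NDMA change was not called (-0.45 ± 0.38).

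Genes of lipid and sterol synthesis rose with time in both treatments, and part of them were below saline after NDMA at both times. Of 19 genes of fatty acid and triglyceride synthesis, 17 rose in NDMA and 15 in saline livers, and 0 were called in the difference. At week 10, 10 were below saline and at month 10 9 were, against 4.05% and 2.42% of all genes. With all libraries brought to 1 total 6 and 7 were, against 1.76% and 1.75% of all genes. In females alone 10 and 2 were, against 3.48% and 2.45% of all genes. Srebf1, the sterol regulatory factor of lipid synthesis, stood at 14.7 to 78.4 in NDMA livers at week 10 (median 26.3) and 45.4 to 312 at month 10 (median 166), against 78.7 to 261 (median 109.8) and 255 to 472 (median 329). It rose by 2.66 ± 0.29 after NDMA and by 1.49 ± 0.29 in saline livers. With the slope as a term 3 of the 19 genes rose in NDMA and 0 in saline livers, Srebf1 among the 3 (1.40). Fasn, fatty acid synthase, rose by 2.34 and 2.10 and was below saline at both times (-1.44 and -1.20). Of 21 genes of cholesterol synthesis, 15 rose in NDMA and 14 in saline livers, or 1 and 0 with the slope as a term, and Insig1, a sterol sensor, was below saline at both times (-1.63 and -0.82). Of 47 P450 genes, 14 rose and 2 fell in NDMA livers (14 and 6 without the 3 libraries) while 5 rose and 10 fell in saline livers, where 28.3% and 31.3% of all genes rose and 19.2% and 18.7% fell. With all libraries brought to 1 total 16 rose and 3 fell in saline livers, where 45.7% and 8.90% of all genes did in that fit, and with the slope as a term 2 rose in NDMA livers and 0 were called in saline livers. The share of P450 genes that rose in NDMA livers was near that of all genes. Of the 47, 2 were higher in the difference (Cyp2c37 and Cyp7b1), and 14 were below saline at week 10 and 6 at month 10, against 4.05% and 2.42% of all genes. When all libraries were brought to 1 total, the difference was higher for 1 of the 47. In that fit 9 and 6 were below saline, against 1.76% and 1.75% of all genes. Cyp2e1, which activates NDMA, stood at 797 to 2728 in NDMA livers at week 10, below all 8 saline livers (3189 to 8089), and at 993 to 3766 at month 10, against 2097 to 4705, and was below saline at both times (-1.74 and -0.86). Of 25 genes of bile acid synthesis and transport, 11 were below saline at week 10 and 6 at month 10, against 4.05% and 2.42% of all genes. With all libraries brought to 1 total 7 and 5 were, against 1.76% and 1.75% of all genes in that fit. Of 16 clock genes, 6 were below saline at week 10 and 0 at month 10, against 4.05% and 2.42% of all genes. These became 2 and 0 with that scaling, against 1.76% and 1.75% of all genes. Of the 16, 10 rose in NDMA and 6 in saline livers, or 1 and 0 with the slope as a term, where the share in saline livers was near that of all genes. They included Tef, a clock output factor (1.59 ± 0.21 in NDMA livers). The hours of collection are not given in the sources used here.

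Pericentral hepatocyte genes, those expressed around the central vein where NDMA is activated, rose in 11 of 18 after NDMA and in 12 of 18 in saline livers, where 28.3% and 31.3% of all genes rose, and in 1 and 0 with the slope as a term. Glul, glutamine synthetase of the innermost pericentral layer, stood at 148 to 442 in NDMA livers at week 10 (median 344), below all 8 saline livers (469.8 to 826), and at 157 to 2073 at month 10 (median 1185), against 471 to 1952. Glul rose by 1.59 ± 0.28 in NDMA livers, and its difference was not called with all libraries (1.05 ± 0.40) but was without the 3 (1.31). Oxidative phosphorylation stood at the other end of the shared change: 17 of 28 nuclear subunit genes fell in NDMA and 18 in saline livers (19.2% and 18.7% of all genes), 0 differed between the treatments at either time, and 0 were called in either change with the slope as a term. Ndufa4, a small subunit of the respiratory chain, fell by 1.68 ± 0.30 and by 1.69 ± 0.30, and Commd3 fell by 2.34 and 2.35, differences of 0.00 and 0.01. For both genes the change with the slope as a term was small and not called (-0.10 and -0.52 in NDMA livers).

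The NDMA mice differed among themselves in how far the late genes stood from saline. Counted for each mouse, 15 to 19 of the 19 falling genes (median 18) were above the highest saline liver of the same time at week 10, and 2 to 14 (median 8) at month 10. The count cannot pass 19, which some mice reached at week 10. The highest saline liver was taken from 8 livers at week 10 and from 12 at month 10, a stricter bar. The same holds for the lowest saline liver used for the rising genes below. The 19 genes include Raet1a, Raet1b, Raet1c and Raet1d, which were read above as about 1 signal. The highest counts at month 10 were 14 in D209016 and 12 in the males D209020 and D209022 and the female D209048, and the lowest was 2 in the female D209043. The mean excess of the 19 genes over saline was 2.87 to 4.28 (log2) at week 10 and 0.131 to 2.16 at month 10, so that the 2 times did not overlap. Of the 11 rising genes, 7 to 11 (median 9) were below the lowest saline liver at week 10 and 0 to 5 (median 3) at month 10, and their mean distance from saline was -3.04 to -1.60 and -0.71 to 0.52. The range of that mean was narrower at month 10, while that of the falling genes was wider. The month 10 group also held D209016 and D209018, which stood apart. Gene by gene, the NDMA and saline ranges were apart at week 10 for 11 of the 19 falling and 5 of the 11 rising genes, and at month 10 for 1 of 19 and 0 of 11. These 2 counts are not like for like, since ranges widen with more mice. The groups held 8 NDMA and 8 saline livers at week 10, and 13 and 12 at month 10. The share of all genes with ranges apart is not given here. The choice of these genes used the same libraries, so the counts describe how the mice spread. The SD within sex, as a median over genes, was 0.409 in NDMA livers at week 10 and 0.543 at month 10, against 0.637 and 0.452 in saline livers.

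The fall of the late genes was larger in females than in males as a description of separate fits. In females alone the 17 falling genes that could be tested had a median difference of -3.16, and 15 of 17 were called. Over all genes 0.437% were called lower in that fit. In males alone the median of 19 genes was -1.39, all 19 had the same direction and 0 were called. None of the 9866 genes tested in males alone was called in the difference, so that 0 is not particular to these genes. At month 10 the median NDMA minus saline of the falling genes was 0.78 in females, with 4 of 17 called, and 1.75 in males, with 10 of 19 called. Over all genes 2.55% were higher in females alone and 4.34% in males alone at that time. For the rising genes the median differences were 1.92 and 1.36. Males were fewer and held all 3 libraries that stood apart. In males alone 1 gene was called in the NDMA change and in females alone 5401.

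Tested directly, the NDMA change differed between males and females for 44 genes (0.439%), more positive in males for 16 (0.16%) and more negative for 28 (0.279%). Among the 30 late genes 4 were called, Cbr3 and Anxa2 (2.20 ± 0.48) on the first side and Ces3b (-1.51 ± 0.36) and Lifr (-1.86 ± 0.40) on the second. For Cbr3 the male NDMA livers stood at 57.2 to 134 at week 10 (median 86.5) and 12.7 to 202 at month 10 (median 39.3), and the females at 62.7 to 294 (median 207) and 4.16 to 6.66 (median 4.64). Every male was above every female at month 10, and the male less female change was 3.76 ± 0.69 (limma, adjusted p = 0.00540). Sult3a1, a sulfotransferase expressed in female liver, differed most. In female saline livers it stood at 455 to 1661 at week 10 and 438 to 983 at month 10, in female NDMA livers at 1.45 to 9.46 (median 4.29) and 66.1 to 412 (median 134), and in all males at 8.61 or less. Female NDMA livers at week 10 were thus at the level of the males and at month 10 between the male and the female saline range, a male less female change of -4.92 ± 0.82 (limma, adjusted p = 0.00293). Cux2, a transcription factor of female liver, was likewise lowest in females in NDMA livers at week 10, but stood higher at month 10 than at week 10 in saline livers too: 6.12 to 12.1 in saline livers at week 10, 0 to 2.36 in NDMA livers at week 10, 14.8 to 49.2 in saline livers at month 10 and 9.29 to 23.8 in NDMA livers at month 10. The male less female change of Cux2 was -3.54 ± 0.61 (limma, adjusted p = 0.00293). Slc22a26 (-3.36), an organic anion transporter gene, Hspg2 (-3.45), the perlecan gene, and C730036E19Rik (-3.57) completed the 6 genes with the largest difference by sex. The count of 44 was 32 without the 3 libraries and 3 with the slope as a term. All males are numbered D209001 to D209024 and all females D209025 to D209048, and the libraries were made in subpools whose members are not given in the sources used here, so subpool and sex may coincide and could not be told apart.

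Among 21 female-biased hepatocyte genes, in females alone 10 were below saline at week 10 and 10 at month 10, with 3 and 1 above, where 3.48% and 2.45% of all genes were below in that fit. Cyp2b13, a female P450 gene, stood in females at 4.10 to 33.5 in NDMA livers at week 10, below the saline range of 50.2 to 389.7, and at 89.2 to 189 at month 10, below the saline range of 207 to 481. Mup20, a male-biased pheromone gene, went the other way in females, with 4354 to 12283 in NDMA livers at week 10 against 406 to 1142 in saline livers, and 309 to 3726 at month 10 against 114 to 268. Among 18 male-biased genes, 14 fell in saline livers and 6 in NDMA livers (18.7% and 19.2% of all genes), and 3 were higher in the difference. With the slope as a term 0 of the 18 were called in either change, and 3 were higher in the difference. Hsd3b5, a steroid dehydrogenase of male liver, stood in males at 216 to 806 in saline livers at week 10 and 12.3 to 34.3 in NDMA livers, with all 4 NDMA males below all 4 saline males. At month 10 the male ranges overlapped, at 13.03 to 276 and 2.81 to 187. For Sult3a1, Cyp2b13 and Mup20 the medians of the sexes were nearer to each other in NDMA than in saline livers at week 10.

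**Figure D5:**
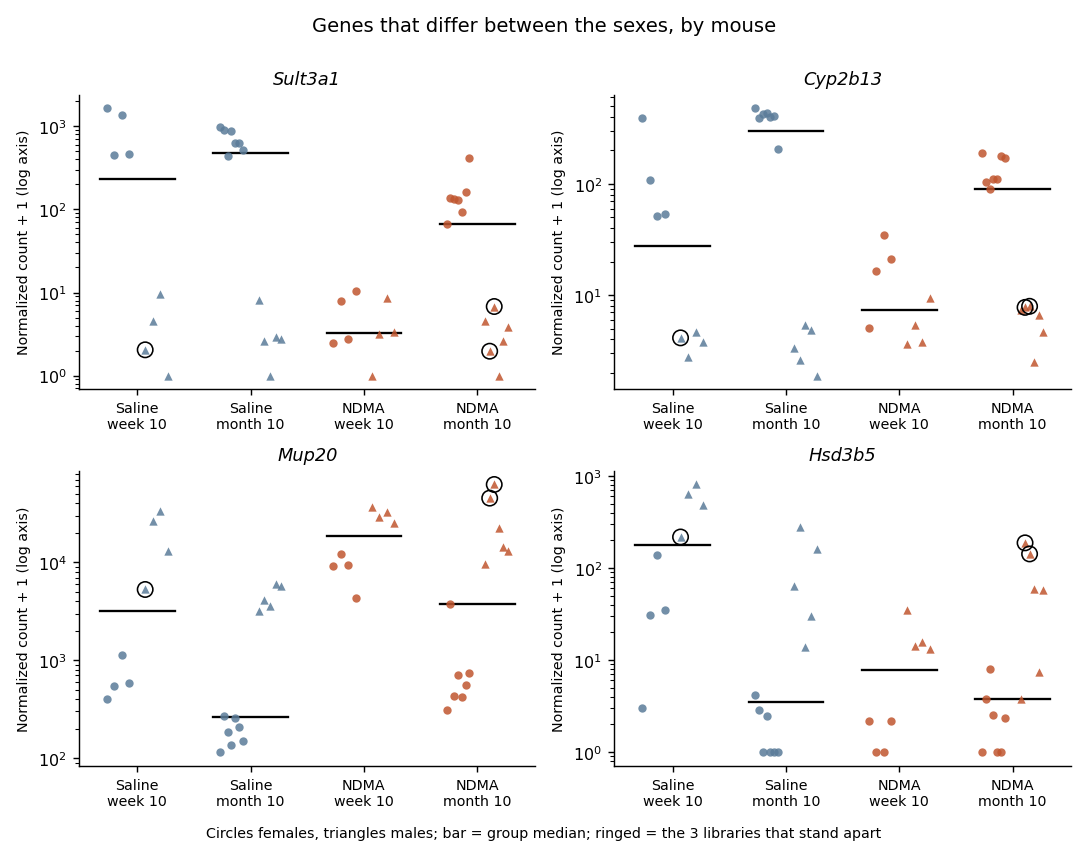
Normalized count + 1 (log axis) of Sult3a1, Cyp2b13, Mup20 and Hsd3b5 in each mouse of the 4 groups, with females as circles, males as triangles, bars at group medians and rings on the 3 libraries that stood apart. In NDMA livers at week 10 the females lie near the males for Sult3a1, and at month 10 they lie between the males and the saline females.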

How the data were processed

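After alignment to GRCm38/mm10 (STAR) and counting by gene (ESAT), the authors deposited DESeq2-normalized counts, a signal in which each library was divided by 1 size factor. Tool versions and the annotation are not given in the sources used here. Whole reads were recovered, with 100% of values whole within 0.05. Genes were fitted with limma 3.58.1 (trend and robust) in R 4.3.3 on log2(value + 1) over the 41 libraries in 4 groups, with sex as a term. edgeR 4.0.16 and DESeq2 1.42.0 on whole reads were alternatives. The p-values are two-sided and Benjamini-Hochberg adjusted over all 10020 genes tested, of 19540 in the data. Fold changes on this scale understate the change of low genes. Positions and transcript lengths are those of GENCODE vM21. All 41 libraries share 1 batch label, each mouse is 1 library, and the subpools in which cDNA was pooled are not given.

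Named genes were the 12 late genes with the largest difference in each direction, the 6 with the largest shared change in each direction, the first and up to 4 more members of each of 42 lists, 18 genes of interest and the 6 with the largest sex difference. The late genes beyond these, the genes called in the difference alone and Apoc2 were chosen after their values were seen, and the members and lists were chosen with earlier results of these data known. The values of 1 of the 11 rising late genes are not reported here. The fit was tested on simulated data. Figures were drawn with matplotlib 3.10.9 and tables handled with pandas 2.3.3 (Python 3.11.15).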

Additional observations from a re-analysis of the deposited data

Results flagged for a closer look

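Of 62 groups of 4 to 10 libraries checked for a value set apart from the rest, 7 held one, and chance flags about 1 in 20. The slope on transcript length was 0.250 in saline mouse D209001 at week 10, with the others at -0.326 to -0.204. Gpx2 stood at 0.866 in saline D209027 at week 10, where the others were at 0, and at 98.8 in NDMA D209031 at week 10, where the others were at 11.5 to 30.7. Wfdc3 stood at 2.46 in saline D209003 with the others at 0, and Cbr3 at 2.46 in the same mouse with the others at 4.08 to 6.04. Cdkn3 stood at 16.4 in saline D209027 with the others at 0 to 2.83, and Timp1 at 1.51 in saline D209026 with the others at 0.

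The change over time differed between NDMA and saline livers for 47 genes and between the sexes within NDMA livers for 44. Of the genes with the largest sex difference, Cbr3 (3.76) had a more positive change in males, and Sult3a1 (-4.92), Cux2 (-3.54), C730036E19Rik (-3.57), Hspg2 (-3.45) and Slc22a26 (-3.36) a more negative one, on the log2 scale. The late genes Anxa2, Ces3b and Lifr were called too, as given above.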

How the results depend on the processing

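The difference of changes gave 74 genes with a pseudocount of 5, 25 without the sex term, 74 with DESeq2, 0 in males only, 89 in females only, 100 without the 3 libraries and 93 with the slope on transcript length, and 19 (without NDMA week 10 D209030) to 95 (without saline week 10 D209001) when 1 library was left out, with 26 without D209029. Late genes numbered 53 with a pseudocount of 5, 19 without the sex term, 0 in males only, 64 in females only, 54 without the 3 libraries, and 8 (without D209030) to 46 (without NDMA month 10 D209022), with 14 without D209029. The NDMA change gave 1 gene in males only and 77 with the slope, the saline change 1415 and 16, and they ranged over 4370 to 5121 and 4681 to 5769 without 1 library. NDMA minus saline gave 717 genes at week 10 with a mean of at least 20 and 330 in males only, and 880 to 1172 at week 10 and 594 to 849 at month 10 without 1 library. The sex difference gave 93 genes with a pseudocount of 5, 125 with a mean of at least 20, 18 with only the NDMA groups in the fit, 120 with edgeR, 352 with DESeq2, 11 with log2 of total reads as a term and 3 with the slope, and 4 (without D209029) to 469 (without D209001) without 1 library. Scaled to the same total, higher and lower calls were 3441 and 1471 in the NDMA change, 4627 and 900 in the saline change, 9 and 43 in the difference, 1113 and 178 at week 10, and 35 and 19 in the sex difference, as that scaling put the median of all genes at 0.34, 0.58, -0.23 and 0.23 in the first 4, from 0.17, 0.22, -0.03 and 0.04. Changes reversed for Hba-a1 (0.057 in males only, 0.88 with the slope), C730036E19Rik (-0.038 in males only), Hspg2 (-0.30 with the slope) and Nqo1 (0.028 in males only) in the NDMA change. The causes were not tested. Other settings, leaving out 1 library aside, kept each total within 1.5 times its value. Counts in 1 direction moved by more within such totals: edgeR gave 15 negative differences and 11 falling late genes, DESeq2 22 rising late genes, the slope 12 falling late genes, 1 total 6 rising late genes, a mean of at least 20 gave 1966 rising genes in the saline change and 270 higher at month 10, no filter 1088 higher at week 10 and 13 negative sex differences, fits in females 403 higher at week 10 and 257 at month 10, a fit in males 127 lower at month 10, and the sex difference without the 3 libraries 16 negative. The alternatives without the 3 libraries and with the slope were chosen after seeing the data. No paired analysis was possible because the mice of the groups share no replicate identifiers. Fits in 1 sex hold 4 to 7 mice a group. The shallowest library had 713584 reads, so genes near the filter rest on few counts.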

Other observations

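NDMA mouse D209016 at month 10, a male and 1 of the 3 libraries that stood apart, held genes at levels far above its group median. They were picked once their values had been seen. Fgf23, a phosphate-regulating hormone made by bone, stood at 200.1 normalized counts there and at 3.98 or less in the other 40 libraries. The red cell genes Hba-a1 and Hbb-bs stood at 8837 and 35473, and the summed level of the red cell list was 62530, against a group median of 3323. Hba-a1 and Hba-a2 have the same coding sequence, so reads may be split between them. The summed neutrophil list was 1447 in D209016, against a group median of 54.4, with Camp at 88.9 and Ngp at 133. Prtn3, a neutrophil protease, stood at 166 in D209016 and at 317 in a female of the same group. The summed Kupffer cell list was 3481 in D209016, against a group median of 1464. The summed cholangiocyte and ductular list was 15038, against 5169, but its most abundant gene, Ambp (group median 4421), encodes a plasma protein of hepatocytes, and the summed plasma protein list was 752690 in D209016, against 370577. The normalized counts of all genes summed to 2469850 in D209016, against 1336490 to 2107370 in the other NDMA livers at month 10. Each summed list of D209016 was thus drawn from a larger total. The same mouse had the most falling late genes above saline among NDMA livers at month 10, 14 of 19.

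The lists of T and NK cells and of B and plasma cells had 3 tested members each, so these data say little about lymphocytes. Of 22 acute phase genes, 5 were above saline at week 10 and 6 at month 10, where 6.73% and 4.77% of all genes were, and 0 were called in the difference. Of 14 genes of base excision and direct repair, 2 rose and 4 fell in NDMA livers, where 28.3% of all genes rose and 19.2% fell, and 0 were called in the difference, where 0.469% of all genes were.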
